A study of Mus musculus with 12 samples.

Results

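The data were bulk RNA-seq of 6 mouse tumours. Of these, 3 came from mice given the cytokine IL-10 joined to an antibody Fc tail (IL-10-Fc). The other 3 came from mice given a control isotype that the labels call IgG1-Fc (Ctrl-IgG). All 6 were chosen by their treatment labels from a series of 12 tumours. The other 6, from mice given a CSF1R antibody (αCSF1R) or its fusion with IL-10 (BF10), served here to estimate the spread between libraries and to show where the 6 stood among the 12. Every tumour was labelled as MTC-Q1 oral cancer cells placed in the mouth of C57BL/6 mice, and their titles carry the prefix Q1-2, which the study uses for a luciferase-expressing subline. Treatment was given to mice whose tumours had reached 100 mm3, and the labels give the number of doses as 4 in one place and 6 in another. Age, sex and genotype of the mice are not stated in the labels, and whole tumour pieces were extracted, so RNA of cancer cells, stroma and blood cells was pooled in each library. The labels do not say that the 3 tumours of a group were grown or treated on separate occasions, so the p-values measure only the spread between these tumours.

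IL-10 binds a receptor made of IL-10Rα, which gives specificity, and the widely used chain IL-10Rβ. The kinases JAK1 and TYK2 then phosphorylate STAT3, which induces Socs3 and a set of repressors in macrophages and lowers their output of TNF, IL-12, chemokines and MHC class II. The same receptor on CD8+ T cells and NK cells supports their growth and cytotoxicity, and IL-10 given as a drug can raise interferon gamma, whose own targets include MHC genes, guanylate-binding proteins and the chemokines CXCL9, CXCL10 and CXCL11.

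Before the comparison, the libraries were checked against their labels, and the 2 groups differed in features that the treatment labels do not describe. Krt18, a keratin of simple rather than stratified epithelium, stood at 0.0766, 0 and 0.0414 scaled FPKM in the Ctrl-IgG libraries (FPKM, the fragments per kilobase of transcript relative to all mapped fragments, here divided by a size factor for each library) and at 438, 488 and 556 in the IL-10-Fc libraries, in the order of replicates 1, 2 and 3. Its partner Krt8 stood at 0.0936, 0.177 and 0.232 against 287, 281 and 538, and Krt7, found in glandular epithelium, at 0.111, 0.0443 and 0.207 against 171, 145 and 164. The gap ran through the whole series: Krt18 lay between 0 and 0.0667 in the 3 αCSF1R libraries and between 388.5 and 540.5 in the 3 BF10 libraries. Xist, the RNA that coats the inactive X chromosome of female cells, read 0.017, 0.0222 and 0.0249 in Ctrl-IgG and 39, 39.2 and 16 in IL-10-Fc. Eif2s3y, a gene of the Y chromosome, read 5, 12.6 and 8.49 in Ctrl-IgG and was listed at 0 in all 3 IL-10-Fc libraries, as was Ddx3y, which read 1.5, 3.41 and 4.98 in Ctrl-IgG. H2-Ea, the alpha chain of the class II molecule I-E (ENSMUSG00000036322, chr17:34341959-34344645), is not transcribed in C57BL/6 mice because their promoter carries a deletion. It read 0.23, 0.155 and 0.124 in the Ctrl-IgG libraries and 2383, 2869 and 525 in the IL-10-Fc libraries, and between 462 and 1284 in BF10.

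The transcripts that were high in Ctrl-IgG and near 0 in IL-10-Fc included Rhox5, a homeobox gene of the germline and placenta, at 585, 876 and 495 against 1.12, 2.18 and 1.32. Shisal2b, a membrane protein gene of the Shisa family, read 1232, 2736 and 926 against 0.48, 1.33 and 0.693. Klra4, a Ly49 receptor gene of a cluster whose content differs between inbred mouse strains, read 58.5, 164 and 50.4 against 0, 0.0831 and 0.0842. In BF10, Rhox5 ranged from 0.326 to 93.0 and Klra4 from 0.0264 to 8.91, so these libraries lay below Ctrl-IgG and in part at the IL-10-Fc level, whereas the αCSF1R libraries stood with Ctrl-IgG (459.8 to 598.5 for Rhox5). The study also used a second tumour, the 4T1 breast cancer line grown in BALB/c mice, but all 12 libraries carry the oral tumour's labels. Each of these differences runs along the line between the groups, so a difference in tumour cells, mouse strain or sex of the cells and an effect of IL-10-Fc cannot be told apart in any result given here. The group names are those of the labels.

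**Figure D1:**
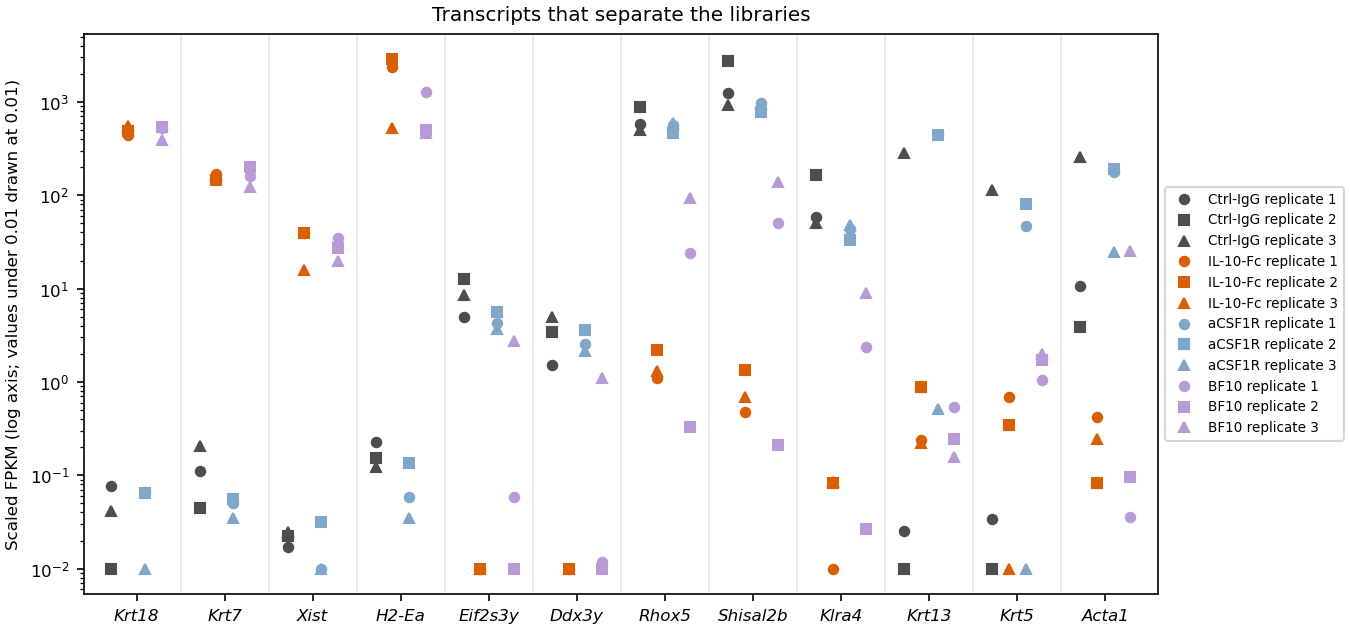
Scaled FPKM (log axis, values under 0.01 drawn at 0.01) of 12 transcripts in the 12 libraries, coloured by group, with replicates 1, 2 and 3 as circle, square and triangle. Krt18, Krt7, Xist and H2-Ea are high in BF10 and IL-10-Fc and near 0 in αCSF1R and Ctrl-IgG. Rhox5, Shisal2b and Klra4 are high in αCSF1R and Ctrl-IgG and near 0 in IL-10-Fc. BF10 is mixed for these genes (Rhox5 24.3, 0.326 and 93.0, Shisal2b 50.6, 0.211 and 137.7). BF10 replicate 3 also holds the Y genes Eif2s3y (2.75) and Ddx3y (1.10), which are 0 in IL-10-Fc. Krt13, Krt5 and Acta1 are high in Ctrl-IgG replicate 3 alone among the 6 libraries compared.

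Within the groups, 2 further features stood out. Ctrl-IgG replicate 3 stood apart by RNA of stratified squamous epithelium and skeletal muscle: Krt13 read 0.0255, 0 and 287 in the Ctrl-IgG libraries and 0.24, 0.88 and 0.225 in IL-10-Fc, Krt5 0.034, 0 and 114 and 0.692, 0.349 and 0, and the muscle actin Acta1 10.8, 3.92 and 259.6 and 0.424, 0.0831 and 0.243. The other 5 libraries lacked these keratins, although IL-10-Fc held Krt14, a basal keratin, at 37.4, 29.8 and 29.7, and Perp, a desmosome gene of epithelium, at 32.9, 34.7 and 14.2. The deposited FPKM values summed to 701275, 819001 and 680244 in Ctrl-IgG and to 951051, 976950 and 655855 in IL-10-Fc, and the mitochondrial mRNAs took 3.00%, 7.19% and 3.30% and then 9.04%, 7.69% and 3.04% of that sum. Ctrl-IgG replicate 2 and IL-10-Fc replicates 1 and 2 therefore shared a high sum and a high mitochondrial share, and comparisons within these 3 and within the other 3 are given where a result follows that split. Each sets 2 libraries against 1, since Ctrl-IgG had 1 library of high sum and IL-10-Fc 1 of low sum. Their calls take the spread from all 12 libraries and assume that the lone library varies like the others, so they are values beside the result and no independent test of it. Across genes, Pearson's r of log2 values was 0.906 to 0.95 within Ctrl-IgG, 0.881 to 0.979 within IL-10-Fc and 0.757 to 0.844 between them. The number of reads behind each library is unknown, since the files give FPKM with 2 decimals.

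Of 15685 genes tested, 5200 passed an adjusted p of 0.05 and a fold of 1.5 (limma, all 12 libraries in the fit), 2570 higher (16.4% of those tested) and 2630 lower (16.8%) in IL-10-Fc. The median gene moved by 0.01 on the log2 scale. Groups without overlap, in which all 3 libraries of one group lay above all 3 of the other, were found in 18.4% of genes with IL-10-Fc higher and 19.8% with IL-10-Fc lower. These are the shares against which the counts of each gene group are read. The split between directions rests on the scaling: with the deposited FPKM taken as they are, 30.8% of the called genes were higher and the median gene moved by -0.38, and with each library set to the same sum (TPM) the share was 27.6% and the median -0.57, against 49.4% and 0.01 here. Changes below are given as each scaling yields them, without subtracting its median over all genes, unless stated. The largest rises were those of Krt18 (log2 change 8.89 ± 0.19, adjusted p = 7.45e-10) and Ifi202b, an interferon-inducible DNA sensor gene whose expression differs between mouse strains (log2 change 8.46 ± 0.89, adjusted p = 5.94e-05). Krt8 (log2 change 8.24 ± 0.25, adjusted p = 1.3e-08), Gbp2b (log2 change 7.37 ± 0.59, adjusted p = 1.35e-05) and Krt7 followed. H2-Ea is annotated as a polymorphic pseudogene, which kept it out of this ranking, and its change was larger (log2 change 10.36 ± 0.57, adjusted p = 1.32e-06). The largest falls were those of Shisal2b (log2 change -9.67 ± 1.31, adjusted p = 0.000282), Rhox5 (log2 change -7.99 ± 1.13, adjusted p = 0.00037) and Prl2c2, a placental prolactin relative with near-identical copies (log2 change -7.03 ± 1.34, adjusted p = 0.00225), followed by Fmr1nb and Klra4. Errors are standard errors, and changes were fitted on log2(scaled FPKM + 1), which understates the change of genes below about 1.

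The first comparison asked whether the receptor pathway itself differed. Of 22 genes of the IL-10 receptor and STAT3 pathway, all tested, 4 were called higher, a share near that over all genes, and 1 lower, and the median change was -0.03. With the 6 libraries alone in the fit 2 were higher and none lower, and with TPM none was higher. Il10 (ENSMUSG00000016529, chr1:131019845-131024974), the mouse cytokine gene, read 1.38, 1.39 and 1.05 in Ctrl-IgG and 4.18, 3.84 and 1.62 in IL-10-Fc. All 3 IL-10-Fc values lay above the Ctrl-IgG values, replicate 3 by little (log2 change 0.83 ± 0.29, adjusted p = 0.0474), and the call was lost without Ctrl-IgG replicate 1, 2 or 3 or IL-10-Fc replicate 1 or 2 (adjusted p = 0.0705 to 0.168). The receptor chains were not called: Il10ra, the ligand-binding chain, read 5.6, 5.57 and 9.1 against 7.37, 5.13 and 6.75 (log2 change -0.05 ± 0.27, adjusted p = 0.909), with overlapping groups. Il10rb, the shared chain, read 27, 15.9 and 23.2 against 10.4, 9.74 and 20.3, with replicate 3 of IL-10-Fc inside the Ctrl-IgG range (log2 change -0.71 ± 0.29, adjusted p = 0.084).

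Downstream of the receptor, Stat3 read 39.3, 16 and 45.7 against 19.8, 23 and 56.5 and was not called (log2 change -0.05 ± 0.48, adjusted p = 0.942). In both groups its lowest values were those of libraries with a high FPKM sum. Socs3, the feedback inhibitor that STAT3 induces (ENSMUSG00000053113, chr11:117966079-117970047), read 28.8, 8.36 and 51.5 against 36.3, 32.5 and 64.4. The ranges overlapped and the gene was not called (log2 change 0.83 ± 0.51, adjusted p = 0.23). The STAT3-induced regulators Bcl3, Nfil3 and Sbno2 had changes of -0.01, -0.18 and -0.11 and overlapping groups. Etv3, a repressor through which IL-10 acts in macrophages, fell, from 7.34, 7.71 and 9.63 to 3.46, 3.22 and 5.47 (log2 change -0.89 ± 0.22, adjusted p = 0.00936). Cish, a STAT5-induced inhibitor of cytokine signalling, rose from 0.91, 0.532 and 1.68 to 4.87, 3.64 and 3.74 (log2 change 1.35 ± 0.22, adjusted p = 0.000869). Il4ra, the IL-4 receptor chain, rose from 14.5, 8.8 and 25.7 to 31.6, 22.4 and 40.7 (log2 change 0.99 ± 0.34, adjusted p = 0.042), and lost its call without Ctrl-IgG replicate 1 or 2 or IL-10-Fc replicate 1 or 3 (adjusted p = 0.0882 to 0.118). Members called higher numbered 2 without Ctrl-IgG replicate 1 or 2 or IL-10-Fc replicate 1, and with TPM in place of size factors none was called higher and Etv3 alone was called lower.

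The start of Socs3 is shown because it is the classical STAT3 target and its RNA did not separate the groups. The sequence is the 250 bases before the RefSeq start in GRCm38.p6 (chr11:117969367-117969616, minus strand, written 5′ to 3′), with a palindromic STAT site TTCNNNGAA in capitals, 154 to 146 bases before the start:
Socs3: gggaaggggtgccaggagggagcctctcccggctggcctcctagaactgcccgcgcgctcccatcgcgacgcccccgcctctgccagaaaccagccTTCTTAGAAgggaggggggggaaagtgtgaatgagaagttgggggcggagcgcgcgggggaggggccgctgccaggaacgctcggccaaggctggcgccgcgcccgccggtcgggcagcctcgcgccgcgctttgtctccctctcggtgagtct
That motif, searched on both strands, was present in 7.02% of 32851 promoters of this length, and in 4 of the 17 pathway genes with a promoter in the table, none of which was called.

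Genes that IL-10 induces or sustains in macrophages were higher on balance. Of 26 such genes 25 were tested, 11 were called higher and 1 lower, and the median change was 0.99. In the summed level of the list, IL-10-Fc replicates 1 and 2 stood apart (3290, 3494 and 1408) from the Ctrl-IgG libraries (792, 1112 and 1153), and replicate 3 lay just above them. Arg1, the arginase of alternatively activated macrophages (ENSMUSG00000019987, chr10:24915221-24927484), read 15.4, 9.66 and 18.5 in Ctrl-IgG and 171, 287 and 122 in IL-10-Fc. Every IL-10-Fc library was several-fold above every Ctrl-IgG library (log2 change 3.60 ± 0.43, adjusted p = 0.000132). Hmox1, the heme oxygenase that IL-10 induces in macrophages, moved the other way, from 174, 128 and 179.9 to 22.2, 27.1 and 51.6 (log2 change -2.30 ± 0.41, adjusted p = 0.00147), with no overlap. Fcgr2b, the inhibitory receptor for IgG, rose from 28.3, 71.1 and 47.8 to 304, 315 and 109 (log2 change 2.23 ± 0.47, adjusted p = 0.00394). The scavenger receptor Msr1 read 16.6, 47.6 and 17.6 against 178, 246 and 52 (log2 change 2.40 ± 0.60, adjusted p = 0.0101), and IL-10-Fc replicate 3 was only just above the highest Ctrl-IgG library. Ccr2 and Ccr1, chemokine receptors of monocytes, rose but overlapped: Ccr2 read 11.7, 26.9 and 6.26 against 142, 107 and 18.8 (log2 change 2.30 ± 0.72, adjusted p = 0.03). Its call was lost without Ctrl-IgG replicate 1 or 3 or IL-10-Fc replicate 1 or 2 (adjusted p = 0.0822 to 0.122), and that of Ccr1 without Ctrl-IgG replicate 1 or 3 or IL-10-Fc replicate 1 or 2 (adjusted p = 0.0875 to 0.126). Mrc1, the mannose receptor, rose from 5.29, 14.2 and 8.48 to 58.4, 55.3 and 14.7 (log2 change 1.95 ± 0.50, adjusted p = 0.0113) and lost its call without Ctrl-IgG replicate 1 or IL-10-Fc replicate 1 (adjusted p = 0.0516 to 0.0519).

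Members that were not called included Cd163, a scavenger receptor that IL-10 raises in macrophages, at 0.068, 0.122 and 3.49 against 2.84, 1.33 and 3.75, and Il1rn, the IL-1 receptor antagonist, at 17.7, 11.2 and 16.1 against 10.3, 16.9 and 12.9. Mertk, a receptor for dying cells, read 3.18, 1.68 and 3.8 against 1.04, 0.748 and 2.66 (log2 change -0.68 ± 0.41, adjusted p = 0.224). The number of members called higher fell to 4 without Ctrl-IgG replicate 1 or IL-10-Fc replicate 1 and to 7 without IL-10-Fc replicate 2. With the 6 libraries alone in the fit it was 3. The high-sum libraries, with 1 of Ctrl-IgG, gave 14 higher and the low-sum libraries, with 1 of IL-10-Fc, 7, with Hmox1 lower in both.

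The mediators that IL-10 restrains in macrophages did not share a direction. Of 31 fixed genes 29 were tested, 13 were called higher and 3 lower in IL-10-Fc, and the median change was 1.299. Csf3, the neutrophil growth factor G-CSF (ENSMUSG00000038067, chr11:98701263-98703629), had the largest rise, from 0.136, 0.288 and 1.17 to 96.7, 288 and 67.7 (log2 change 6.41 ± 0.69, adjusted p = 7.12e-05). The IL-1 family genes rose: Il1a read 0.289, 0.953 and 0.945 against 26.6, 36.1 and 8.12 (log2 change 3.63 ± 0.56, adjusted p = 0.000638), and Il1b, a main product of inflammatory monocytes, 23.8, 34 and 31.7 against 311, 382 and 65 (log2 change 2.71 ± 0.72, adjusted p = 0.0141). Il1b was lowest in replicate 3 of IL-10-Fc, still above Ctrl-IgG, and lost its call without Ctrl-IgG replicate 1 or IL-10-Fc replicate 1 or 2 (adjusted p = 0.0507 to 0.0602). Il18, made by macrophages and epithelium, rose from 3.7, 5.47 and 6.62 to 29, 45.5 and 13.4 (log2 change 2.15 ± 0.41, adjusted p = 0.00222). Il23a, which encodes the p19 chain of IL-23, rose from 1.21, 2.44 and 1.78 to 23.3, 35.1 and 10.9 (log2 change 2.98 ± 0.45, adjusted p = 0.000566). The other chain of that cytokine, Il12b, was under the filter at 0.119, 0.244 and 0.182 against 0.678, 0.266 and 0.169, as was Il12a.

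Tnf, the textbook target of IL-10, read 2.23, 1.56 and 3.35 in Ctrl-IgG and 0.833, 0.93 and 1.58 in IL-10-Fc. The lowest Ctrl-IgG library lay just below the highest IL-10-Fc library, and the gene was not called (log2 change -0.66 ± 0.24, adjusted p = 0.0585). Il6 read 1.68, 3.1 and 8.57 against 6.52, 9.42 and 2.67, and Nos2, the inducible nitric oxide synthase, 8.88, 1.01 and 6 against 5.29, 10.5 and 40.3. The scatter within each group was wide and neither gene was called (log2 change 0.48 ± 0.71, adjusted p = 0.618 and log2 change 1.48 ± 0.69, adjusted p = 0.121). The costimulatory receptor Cd40 rose from 8.2, 11.8 and 7.37 to 32.2, 31.9 and 12.6 (log2 change 1.31 ± 0.33, adjusted p = 0.0112) and lost its call without IL-10-Fc replicate 1 (adjusted p = 0.0504), whereas Cd80 and Cd86 were not called (log2 change 0.37 ± 0.19, adjusted p = 0.155 and log2 change 1.21 ± 0.51, adjusted p = 0.0918). In the libraries of high FPKM sum, 1 of them Ctrl-IgG, 17 members were higher and 3 lower, and in those of low sum, 1 of them IL-10-Fc, 10 and 6. The number called higher was 7, 9, 6 and 7 without Ctrl-IgG replicate 1, Ctrl-IgG replicate 3, IL-10-Fc replicate 1 and IL-10-Fc replicate 2, 7 with the 6 libraries alone in the fit and 8 with no filter on low values.

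Of the mediators, 3 chemokines were lower in IL-10-Fc. Cxcl10, the interferon-induced ligand of CXCR3 (ENSMUSG00000034855, chr5:92346638-92348889), read 503, 751 and 456 in Ctrl-IgG and 69.5, 48.9 and 38.7 in IL-10-Fc. The groups were far apart (log2 change -3.42 ± 0.53, adjusted p = 0.000645). The neighbouring genes Cxcl9 and Cxcl11, which encode ligands of the same receptor, moved the opposite way: Cxcl9 read 26.7, 69.7 and 46.2 against 346, 327 and 62.3 (log2 change 2.09 ± 0.63, adjusted p = 0.0252), and Cxcl11 7.46, 14.3 and 6.68 against 209, 161 and 29.4 (log2 change 3.34 ± 0.75, adjusted p = 0.00569). Cxcl9 in IL-10-Fc replicate 3 lay inside the Ctrl-IgG range and its call was lost without Ctrl-IgG replicate 1 or 3 or IL-10-Fc replicate 1 or 2 (adjusted p = 0.0573 to 0.103). That of Cxcl11 held whichever library was left out. Ccl2, the main ligand of CCR2, fell from 418, 534 and 271 to 68, 123 and 23.1 (log2 change -2.74 ± 0.69, adjusted p = 0.0111). Ccl5, made by T cells, NK cells and macrophages, fell from 105, 96.6 and 97.4 to 39.6, 21.8 and 28.1 (log2 change -1.74 ± 0.29, adjusted p = 0.00103).

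**Figure D2:**
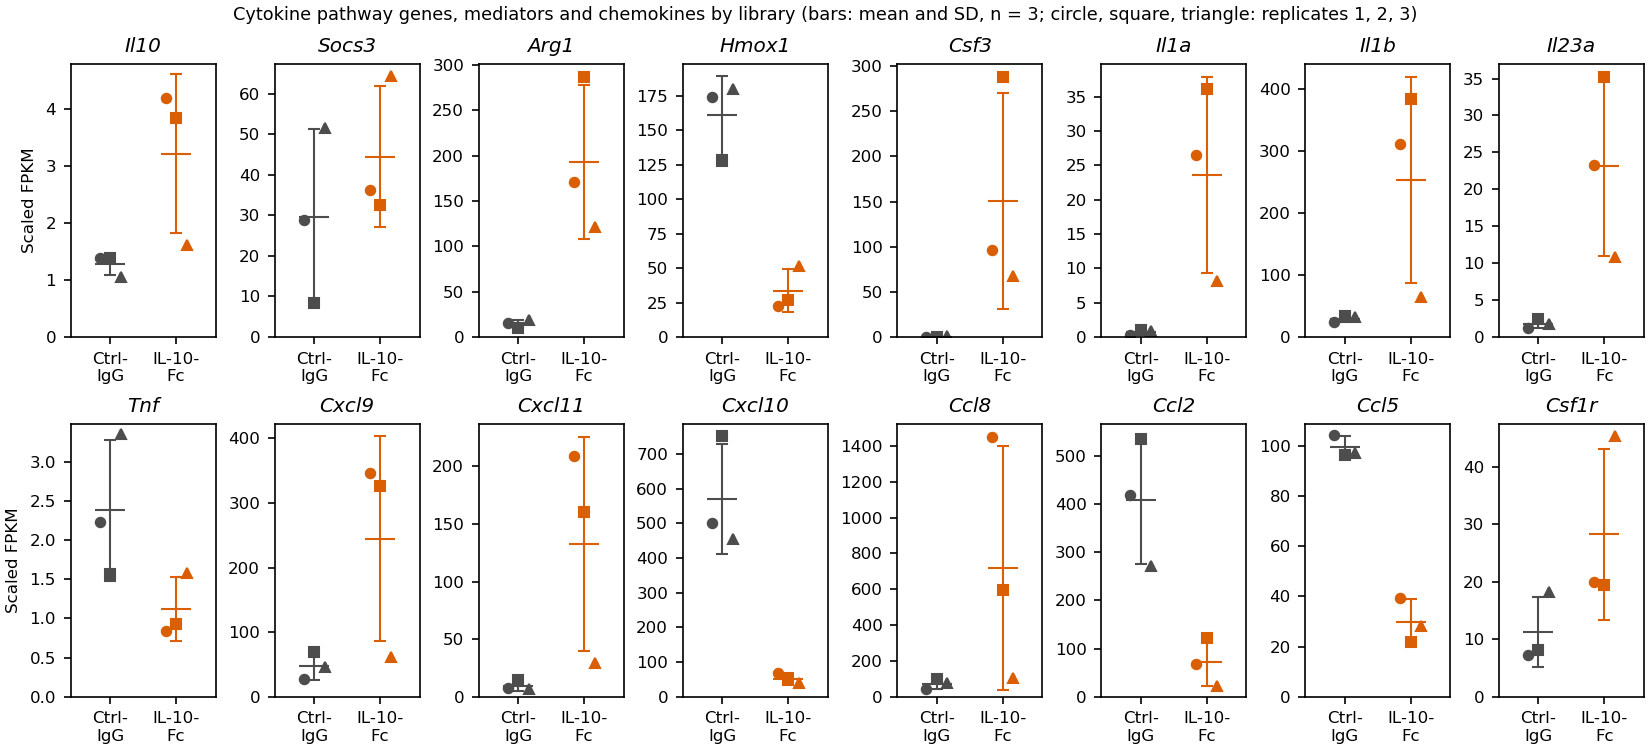
Scaled FPKM of 16 genes of the IL-10 pathway, inflammatory mediators and chemokines in each of the 6 libraries (linear axes from 0; circle, square and triangle: replicates 1, 2 and 3; bars: mean and SD of 3 libraries). Csf3, Il1a, Il23a, Arg1 and Cxcl11 are higher in all 3 IL-10-Fc libraries, Cxcl10, Ccl2, Ccl5 and Hmox1 are lower in all 3, and for Il1b, Cxcl9 and Ccl8 replicate 3 of IL-10-Fc lies close to the Ctrl-IgG values.

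The chemokines of monocytes were likewise divided. Of 16 genes 15 were tested, with 6 higher, 2 lower (Ccl2 and Ccl5) and a median change of 0.78. Ccl8 read 44.1, 101 and 74.2 against 1452, 596 and 105 (log2 change 2.68 ± 0.78, adjusted p = 0.0222). IL-10-Fc replicate 3 was just above the highest Ctrl-IgG library, and the call was lost without Ctrl-IgG replicate 1 or 3 or IL-10-Fc replicate 1 or 2 (adjusted p = 0.051 to 0.0847). Ccl7, encoded beside Ccl2 and acting on the same receptor, read 192, 223 and 90.4 against 70.9, 91.7 and 14.3, with a slight overlap, and was not called (log2 change -1.76 ± 0.74, adjusted p = 0.0878). The count of 6 depended on libraries of both groups: none was called higher without Ctrl-IgG replicate 1 or IL-10-Fc replicate 2, and 1 without Ctrl-IgG replicate 3 or IL-10-Fc replicate 1. It was also 1 with the 6 libraries alone in the fit and 0 with no filter on low values. Of 13 neutrophil chemokines and receptors 11 were tested, and 6 were called higher and none lower (0 lower also at an unadjusted p under 0.05 in limma). Cxcl5, a CXCR2 ligand of epithelial cells, rose from 0.91, 0.488 and 3.05 to 20.3, 27.8 and 12.7 (log2 change 3.17 ± 0.74, adjusted p = 0.00724), whereas the CXCR2 ligands Cxcl1 and Cxcl2 were not called (log2 change 0.40 ± 0.70, adjusted p = 0.678 and log2 change 0.96 ± 0.48, adjusted p = 0.149). The count was 2 without Ctrl-IgG replicate 1 or IL-10-Fc replicate 1, and 2 with TPM or with the 6 libraries alone in the fit. Among 24 genes of T cell chemotaxis 13 were tested, 6 higher and 2 lower (Cxcl10 and Ccl5). Cxcr3, the receptor for CXCL9, CXCL10 and CXCL11, rose from 0.34, 0.388 and 0.141 to 3.29, 3.62 and 4.16 (log2 change 1.86 ± 0.18, adjusted p = 3.55e-05), and Cxcl16 from 12.7, 38.4 and 22.7 to 205, 174 and 74.2 (log2 change 2.58 ± 0.47, adjusted p = 0.00169).

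Type I interferon response genes were mostly lower in IL-10-Fc. All 34 were tested, 17 were called lower and 2 higher, and the median change was -1.13. Rsad2, which encodes the antiviral enzyme viperin (ENSMUSG00000020641, chr12:26442746-26456452), read 194, 138 and 151 in Ctrl-IgG and 2.39, 2.99 and 3.25 in IL-10-Fc. No other member fell as far (log2 change -5.38 ± 0.69, adjusted p = 0.000206), and the 3 libraries of each group were close together. In the αCSF1R libraries Rsad2 lay between 169.6 and 229.6, with Ctrl-IgG, and in BF10 between 2.68 and 43.9. The oligoadenylate synthetase relative Oasl1 read 89.1, 59.6 and 90.7 against 4.35, 3.12 and 6.58 (log2 change -3.85 ± 0.48, adjusted p = 0.000169), and Cmpk2, the neighbour of Rsad2, 43.7, 36.6 and 28.6 against 4.89, 4.85 and 3.95 (log2 change -2.73 ± 0.25, adjusted p = 2.78e-05). Isg15, the ubiquitin-like modifier, fell from 343, 172 and 233 to 64.3, 55.4 and 54.9 (log2 change -2.02 ± 0.32, adjusted p = 0.000752). Mx1, a GTPase against influenza viruses, fell from 24.6, 24.9 and 21.8 to 7.99, 7.38 and 5.25 (log2 change -1.67 ± 0.25, adjusted p = 0.000566), and the RNA sensor gene Ddx58 from 54.5, 73.5 and 44.7 to 13.7, 15.1 and 17 (log2 change -1.82 ± 0.21, adjusted p = 9.21e-05).

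The Ifit genes, which are close copies, were not called: Ifit1 read 53.1, 107 and 36.2 against 68.6, 77 and 9.43 (log2 change -0.65 ± 0.78, adjusted p = 0.542) and Ifit3 80.7, 118 and 59.3 against 68.5, 90.4 and 14.8, with replicates 1 and 2 of IL-10-Fc inside the Ctrl-IgG range. Of the called members, 2 stood higher. Ifi44l rose from 0.221, 0.111 and 0.133 to 57.8, 61 and 12.7 (log2 change 5.00 ± 0.56, adjusted p = 8.66e-05). Ifi27 rose from 125, 122 and 104 to 202, 297 and 190.2 (log2 change 0.94 ± 0.26, adjusted p = 0.0159), losing its call without Ctrl-IgG replicate 3 or IL-10-Fc replicate 2 (adjusted p = 0.0595 to 0.0606). Irf7, the factor that amplifies the response, fell from 84.6, 34.5 and 91.7 to 19.3, 16.6 and 30.9 (log2 change -1.54 ± 0.40, adjusted p = 0.0125) but lost its call without Ctrl-IgG replicate 1 or 3 or IL-10-Fc replicate 2 (adjusted p = 0.0504 to 0.0544). Members called lower numbered 19 in the libraries of high FPKM sum, 26 in those of low sum and 13 to 20 with 1 library left out. With TPM 24 were lower.

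The promoters of Cxcl10 and Rsad2 are shown because these are the chemokine and the response gene with the clearest falls (Rsad2 was added after its values were seen). Each is the 250 bases before the RefSeq start in GRCm38.p6, minus strand, written 5′ to 3′: chr5:92348890-92349139 for Cxcl10 and chr12:26456453-26456702 for Rsad2. Capitals mark the core of an interferon-stimulated response element (GAAA, any 2 bases, GAAA) at 213 to 204 bases before the start in Cxcl10 and, on the other strand, at 120 to 111 in Rsad2, and the CCAAT box of Cxcl10 at 54 to 50:
Cxcl10: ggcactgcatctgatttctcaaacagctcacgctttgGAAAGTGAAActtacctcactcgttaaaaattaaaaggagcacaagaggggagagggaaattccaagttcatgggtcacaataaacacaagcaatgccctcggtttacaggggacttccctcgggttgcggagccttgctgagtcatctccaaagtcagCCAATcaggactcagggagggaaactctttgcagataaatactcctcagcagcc
Rsad2: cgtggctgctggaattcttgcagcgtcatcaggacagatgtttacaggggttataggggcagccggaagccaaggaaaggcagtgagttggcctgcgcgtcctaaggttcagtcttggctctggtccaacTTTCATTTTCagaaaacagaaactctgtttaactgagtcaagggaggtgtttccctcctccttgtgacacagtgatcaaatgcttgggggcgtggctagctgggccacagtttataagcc
Searched on both strands, that core was present in 2.98% of 32851 promoters of this length. Of the 34 type I response genes 25 had a promoter in the table and 11 of these held it, 7 of 13 among those called lower and 4 of 11 among those not called.

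Genes induced by interferon gamma stood higher where they were called. All 27 were tested, with 9 higher, 1 lower (Cxcl10) and a median change of 0.99. Ciita, the master activator of class II genes, read 1.11, 0.964 and 0.787 in Ctrl-IgG and 8.18, 7.41 and 12.5 in IL-10-Fc (log2 change 2.38 ± 0.27, adjusted p = 9.77e-05). The guanylate-binding protein gene Gbp4 rose from 12.8, 26.9 and 11.8 to 219, 281 and 90.0 (log2 change 3.38 ± 0.48, adjusted p = 0.000361) and Gbp10 from 2.87, 7.74 and 1.96 to 51.6, 67.7 and 11.4 (log2 change 2.94 ± 0.64, adjusted p = 0.00486). Members of this family are close copies of each other, so reads may have been split between them. Irf1, an early factor induced by interferon gamma, read 143, 153 and 118 against 119, 129.9 and 147 and was not called (log2 change -0.06 ± 0.20, adjusted p = 0.83). Ifng itself read 2.19, 2.42 and 1.4 against 2.99, 4.09 and 0.833 (log2 change 0.17 ± 0.34, adjusted p = 0.72), and Cd274, the gene of PD-L1, 21.6, 12.1 and 25.4 against 9.04, 15 and 18.4 (log2 change -0.44 ± 0.41, adjusted p = 0.432). Several immunity-related GTPases followed the split by FPKM sum and overlapped between groups, as Iigp1 did at 72.5, 132 and 47.8 against 336, 496 and 83.6. The number called higher was 17 in the libraries of high sum and 9 in those of low sum, 6 without any of Ctrl-IgG replicates 1 or 3 or IL-10-Fc replicates 1 or 2, and 17 without IL-10-Fc replicate 3.

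The class II genes rose together. Of 14 genes 12 were tested, 9 were called higher and 1 lower, and the median change was 2.32. H2-Aa, the alpha chain of I-A (ENSMUSG00000036594, chr17:34282744-34287823), read 92.6, 278 and 134 in Ctrl-IgG and 2485, 2654 and 758 in IL-10-Fc (log2 change 3.49 ± 0.56, adjusted p = 0.000838). Its partner H2-Ab1 rose from 35, 30.8 and 62.9 to 299.7, 272 and 457 (log2 change 3.00 ± 0.40, adjusted p = 0.000265). H2-Eb1, the beta chain of I-E, rose from 54.4, 79.2 and 87.7 to 524, 399.9 and 581 (log2 change 2.76 ± 0.31, adjusted p = 8.96e-05), and the invariant chain Cd74 from 140.5, 95.7 and 205 to 536, 462 and 1231 (log2 change 2.26 ± 0.50, adjusted p = 0.00517). All 3 IL-10-Fc libraries lay above all 3 Ctrl-IgG libraries for each of these genes, and IL-10-Fc replicate 3 was the lowest for H2-Aa but the highest for H2-Ab1, H2-Eb1 and Cd74. H2-DMb2, part of the peptide exchange factor, was near 0 in Ctrl-IgG at 0.451, 0.643 and 0.87 and stood at 58.9, 52.1 and 86.5 in IL-10-Fc (log2 change 5.31 ± 0.27, adjusted p = 8.44e-07). The H2-DMb genes are near-identical neighbours, and H2-DMb1 read 29.6, 19 and 30.1 against 55.6, 65 and 97.1 (log2 change 1.42 ± 0.32, adjusted p = 0.00591). Ifi30, a lysosomal thiol reductase that prepares antigen, fell from 188, 249 and 207 to 109, 87.7 and 90.8 (log2 change -1.15 ± 0.21, adjusted p = 0.00194). Between 9 and 11 were called higher with 1 library left out, and 6 with TPM. The 2 members under the filter were H2-Eb2 and H2-Ob.

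The start of H2-Aa is shown as that of the most abundant class II alpha or beta chain gene measured in both groups. It is the 250 bases before the RefSeq start in GRCm38.p6 (chr17:34287824-34288073, minus strand, 5′ to 3′), with the Y-box of class II promoters, a CCAAT box read on the other strand, in capitals 48 to 44 bases before the start:
H2-Aa: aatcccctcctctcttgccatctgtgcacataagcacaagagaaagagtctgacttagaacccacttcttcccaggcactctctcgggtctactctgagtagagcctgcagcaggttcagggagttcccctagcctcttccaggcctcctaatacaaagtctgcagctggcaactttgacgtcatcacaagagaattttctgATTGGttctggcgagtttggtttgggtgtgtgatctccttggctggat
Of the 10 class II genes with a promoter listed, 8 held CCAAT on either strand, among them all 5 of those called higher, against 33.8% of 32851 promoters. H2-Ea was not in that table.

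Class I presentation was less uniform. Of 22 genes, all tested, 8 were higher and 1 lower, with a median change of 0.40. H2-K1, a classical class I heavy chain, read 2455, 1511 and 2192 against 2439, 2416 and 3497 (log2 change 0.45 ± 0.33, adjusted p = 0.312), and B2m, the shared light chain, 2669, 6230 and 2407 against 13380, 17780 and 2586, which followed the split by FPKM sum (log2 change 1.31 ± 0.77, adjusted p = 0.212). The immunoproteasome subunit Psmb8 rose from 228, 199 and 192 to 513, 483 and 434 (log2 change 1.20 ± 0.23, adjusted p = 0.00244). H2-Q6, a nonclassical gene in a cluster of near-identical and strain-variable copies, rose from 16.1, 9.98 and 21.6 to 159, 143 and 333 (log2 change 3.61 ± 0.36, adjusted p = 4.67e-05). The transporter genes Tap1 and Tap2 were not called (log2 change -0.34 ± 0.27, adjusted p = 0.354 and log2 change -0.27 ± 0.58, adjusted p = 0.737). The direction of the median turned with the scaling, to -0.10 without scaling, -0.31 with TPM and -0.10 with quantile normalization. Relative to the median of all genes under each scaling, these were 0.29, 0.26 and -0.04. With TPM 1 was called higher and 2 lower, and with the 6 libraries alone in the fit 4 and 0. The lower call was lost without Ctrl-IgG replicate 1 or 3 or IL-10-Fc replicate 1 or 2, against 3 lower without Ctrl-IgG replicate 2 and 2 without IL-10-Fc replicate 3.

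**Figure D3:**
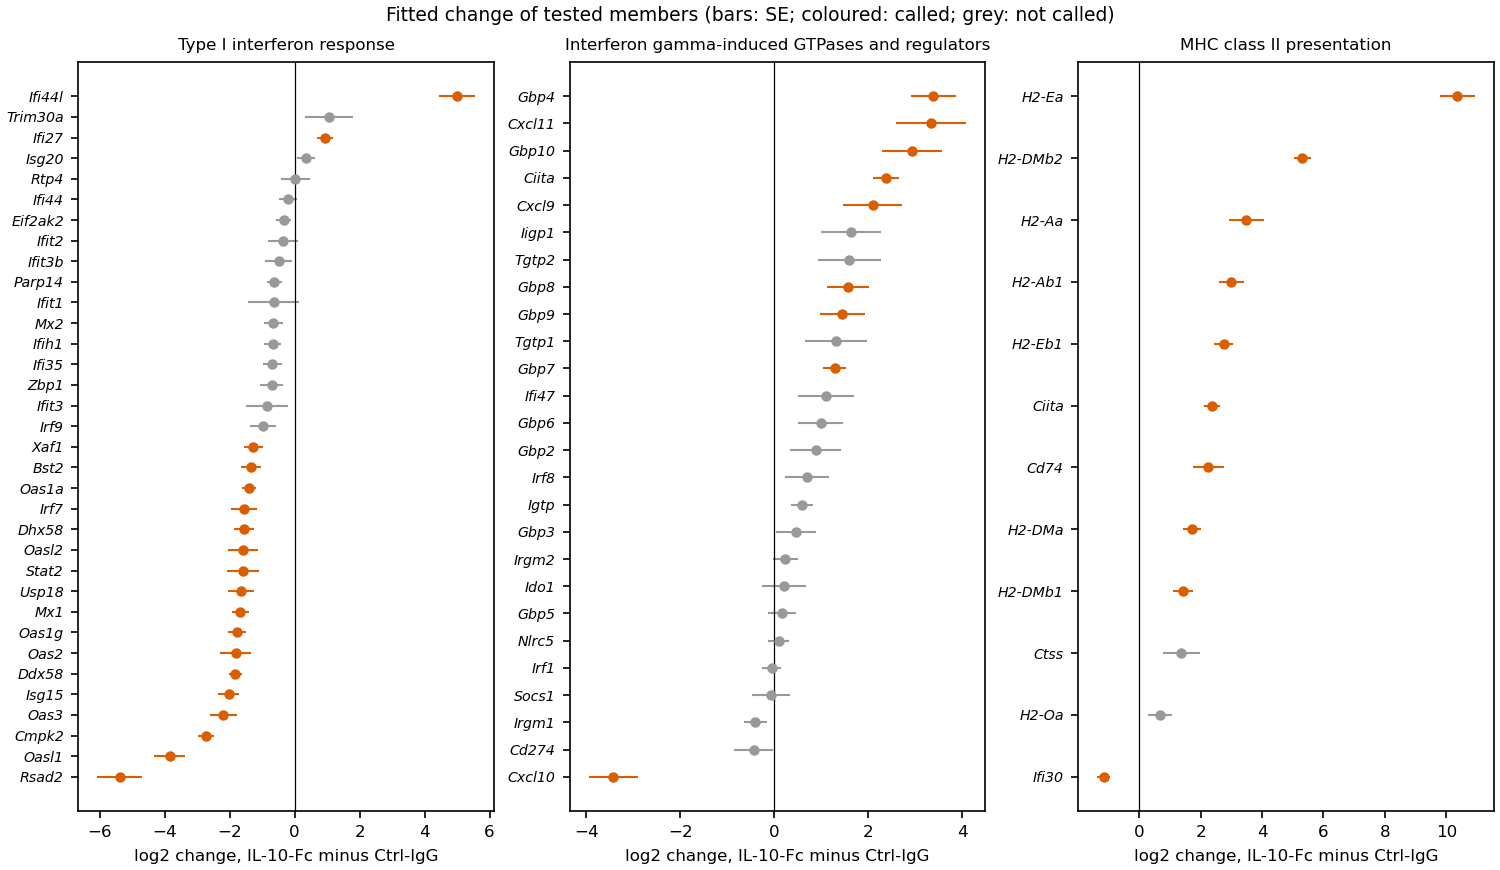
Fitted log2 change, IL-10-Fc minus Ctrl-IgG, of the tested members of 3 gene groups, of which 1 is not drawn (points: estimate; bars: standard error; orange: called; grey: not called). Most type I interferon genes lie left of 0 down to Rsad2, the interferon gamma genes lie mostly right of 0 apart from Cxcl10, and 9 of 12 class II genes are called higher, with H2-Ea farthest out.

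Macrophage identity genes were called in part. Of 15 markers, all tested, 4 were called higher, a share above the 16.4% over all tested genes. None was lower (0 lower also at an unadjusted p under 0.05 in limma), and the median change was 0.57. In these whole-tumour libraries, fewer cells of a type and less RNA per cell cannot be told apart. Csf1r, the receptor on which macrophages depend and the target of the antibody used in other arms, read 7.28, 8.12 and 18.3 in Ctrl-IgG and 19.9, 19.4 and 45.4 in IL-10-Fc. Every IL-10-Fc library was above every Ctrl-IgG library, yet replicate 3 was highest in both groups and the gene was not called (log2 change 1.26 ± 0.54, adjusted p = 0.0952). Of the receptor's ligands, Il34 rose from 7.82, 4.11 and 7.49 to 18, 22.6 and 27.1 (log2 change 1.68 ± 0.24, adjusted p = 0.000444), and Csf1 read 31, 14.1 and 22.1 against 18, 20.4 and 80.4 (log2 change 0.52 ± 0.53, adjusted p = 0.467). Of 8 genes of this receptor, its ligands and related receptors 7 were tested, and the only other call was Csf2rb, the shared chain of the GM-CSF and IL-3 receptors, at 3.11, 2.42 and 6.9 against 10.9, 9.39 and 15.4 (log2 change 1.40 ± 0.41, adjusted p = 0.0214), lost without Ctrl-IgG replicate 1 or 2 or IL-10-Fc replicate 1 (adjusted p = 0.0515 to 0.0753). In the libraries of low FPKM sum 6 of the 7 were higher. C1qa, a complement gene of tissue macrophages, rose from 102, 160.1 and 191 to 564, 554 and 256 (log2 change 1.55 ± 0.33, adjusted p = 0.00461). Adgre1, which encodes the F4/80 antigen, and Cd68 were not called, at 6.49, 25.1 and 11 against 24.3, 19.6 and 7.86 and 45.8, 48.6 and 58.7 against 40.6, 32 and 56.4. The marker count was 1 without Ctrl-IgG replicate 1 or IL-10-Fc replicate 1 and 2 without IL-10-Fc replicate 2. With the 6 libraries alone in the fit no marker was called. With TPM the median was -0.10, which was 0.47 relative to the median of all genes.

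Monocyte markers gave 3 higher and 2 lower calls among 9. F13a1, a coagulation factor gene of monocytes, rose from 1.5, 2.1 and 5.76 to 31, 42.3 and 12.8 (log2 change 2.84 ± 0.45, adjusted p = 0.000822). Ly6c2, which marks inflammatory monocytes, read 70.4, 136 and 63 against 75.8, 52.9 and 11.2 and was not called (log2 change -1.21 ± 0.69, adjusted p = 0.201). Chil3 fell from 11.7, 36.2 and 31.6 to 7.64, 5.07 and 1.64 (log2 change -2.27 ± 0.70, adjusted p = 0.028) and lost its call without Ctrl-IgG replicate 2 or 3 or IL-10-Fc replicate 2 or 3 (adjusted p = 0.0576 to 0.0844). The median was 0.99 over all 6 libraries and -0.49 in the libraries of low FPKM sum. Higher calls numbered 1 with the 6 libraries alone in the fit, 1 without Ctrl-IgG replicate 1 or 3 or IL-10-Fc replicate 2 and 5 without IL-10-Fc replicate 3, and lower calls 1 without Ctrl-IgG replicate 1 and 0 without Ctrl-IgG replicate 2 or 3 or IL-10-Fc replicate 2 or 3.

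Neutrophil markers rose almost without exception. Of 19 markers 17 were tested and 16 were called higher and none lower (0 lower also at an unadjusted p under 0.05 in limma), with a median change of 3.64. Their summed level was 38.2, 63.9 and 289.9 in Ctrl-IgG and 7061, 5496 and 1409 in IL-10-Fc, so the highest Ctrl-IgG library, replicate 3, lay below the lowest IL-10-Fc library. S100a9, a calgranulin that neutrophils carry in bulk, read 8.05, 15.2 and 115 against 3519, 2785 and 524 (log2 change 6.07 ± 0.97, adjusted p = 0.000811). Its partner S100a8 read 13.8, 26.4 and 127 against 2671, 1800 and 369 (log2 change 5.02 ± 0.90, adjusted p = 0.00161). Squamous epithelium also makes calgranulins, and Ctrl-IgG replicate 3, with the squamous keratins, held the highest Ctrl-IgG values of both. The granule genes Ngp, Camp and Ltf were near or at 0 in Ctrl-IgG (0, 0 and 0.0746 for Ngp, 0.434, 0 and 0.0497 for Ltf) and present in IL-10-Fc (39.9, 7.16 and 29.2 and 31.7, 5.96 and 11.8). Retnlg rose from 0.544, 2.05 and 5.79 to 148, 139 and 23.1 (log2 change 4.65 ± 0.94, adjusted p = 0.00318) and Lcn2, also made by epithelium, from 7.7, 11.8 and 23.6 to 235, 496 and 166 (log2 change 4.27 ± 0.66, adjusted p = 0.000689). Mmp9, the gelatinase of neutrophils and macrophages, read 1.99, 2.33 and 2.72 against 102, 85.5 and 206 (log2 change 5.20 ± 0.49, adjusted p = 3.29e-05), and was highest in the replicate with the fewest calgranulin transcripts. Csf3r, the receptor for G-CSF, was the tested marker that was not called, at 2.86, 2.28 and 5.73 against 6.41, 2.76 and 12.1 (log2 change 0.70 ± 0.45, adjusted p = 0.254). Ly6g, below the filter, read 0.128, 0.177 and 0.133 against 9.25, 2.51 and 0.852. Between 13 and 16 were higher with 1 library left out, and 12 with TPM. Neutrophils also make Il1b, Mmp9 and Fc receptors, and the part of neutrophil RNA in those results was not tested.

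Complement genes and Fc receptor genes of myeloid cells gave 12 calls higher each, and the myeloid lectins 4. Of 29 complement genes 26 were tested, 12 higher and 1 lower, with a median change of 0.81. C4b rose from 2.77, 2.71 and 15 to 52.6, 36.4 and 35.4 (log2 change 2.78 ± 0.47, adjusted p = 0.0011) and the protease gene C1s2 from 0.034, 0.0443 and 0.157 to 6.23, 7.34 and 5.69 (log2 change 2.78 ± 0.21, adjusted p = 8.79e-06). C3, the central component, read 7.95, 7.49 and 30.5 against 32.1, 22.6 and 65.7 and was not called (log2 change 1.48 ± 0.59, adjusted p = 0.0741). Of 33 Fc receptor, phagocytosis and TREM genes 31 were tested, 12 higher and 1 lower, and the median was 0.83. Trem2, a lipid receptor of macrophages, rose from 6.04, 7.41 and 8.79 to 15.9, 17.9 and 20.4 (log2 change 1.19 ± 0.21, adjusted p = 0.00146). Axl, a receptor for dying cells, rose from 77.6, 67.3 and 64.8 to 157, 126 and 184 (log2 change 1.13 ± 0.21, adjusted p = 0.00206), and the oxidase subunit Cyba from 35.7, 31.9 and 48.3 to 179, 108 and 110.2 (log2 change 1.73 ± 0.27, adjusted p = 0.000677). Myd88, the adaptor of Toll-like and IL-1 receptors, fell from 34.6, 24.9 and 38.6 to 13.4, 8.69 and 18.7 (log2 change -1.25 ± 0.29, adjusted p = 0.00667). Tyrobp, the adaptor of TREM receptors, read 110.3, 305 and 136 against 929, 994 and 172, high in the libraries of high FPKM sum, and was not called. With TPM 3 of the 31 were higher, and 6 without Ctrl-IgG replicate 1 and 7 without Ctrl-IgG replicate 3. Complement calls numbered 8 with TPM, and likewise 8 without Ctrl-IgG replicate 1. With the 6 libraries alone in the fit, 6 complement and 7 Fc receptor genes were called higher. The member called lower, C8g, lost its call without Ctrl-IgG replicate 1 or 3 or IL-10-Fc replicate 1 or 2 (adjusted p = 0.0667 to 0.106).

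Of 19 myeloid lectin and related genes 18 were in the table (Clec6a was not) and 15 were tested, 4 higher and 1 lower. Clec5a rose from 1.74, 10.3 and 3.93 to 92.1, 107 and 19.1 (log2 change 3.46 ± 0.67, adjusted p = 0.0025) and Clec4n, the dectin-2 gene, from 10.6, 31.4 and 14.2 to 206, 239 and 37.8 (log2 change 2.80 ± 0.65, adjusted p = 0.00718). Clec4a1 fell from 15.6, 23.6 and 20.7 to 7.89, 4.04 and 4.89 (log2 change -1.69 ± 0.35, adjusted p = 0.00368). The median was 0.75, but -0.14 in the libraries of low FPKM sum, and the calls higher were 2 in these, 2 without Ctrl-IgG replicate 1 or 3 or IL-10-Fc replicate 1 or 2, and 9 without IL-10-Fc replicate 3. Without Ctrl-IgG replicate 1, 2 were lower. Among 22 genes of alternative activation and repair 21 were tested, 9 higher and 2 lower, with a median of 1.05. Besides Arg1, the eotaxin gene Ccl24 rose from 0.357, 0.598 and 0.182 to 19.5, 35 and 2.81 (log2 change 3.37 ± 0.68, adjusted p = 0.00326). Gpnmb, a glycoprotein of macrophages and pigment cells, fell from 77.8, 43.9 and 77 to 1, 0.515 and 1.06 (log2 change -5.14 ± 0.66, adjusted p = 0.000201). The other member called lower was Chil3. The number higher was 6 without Ctrl-IgG replicate 1, 5 with the 6 libraries alone in the fit, where 2 lectins were, and 13 in the libraries of high FPKM sum.

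Cytotoxic granule genes were lower in IL-10-Fc. Of 15 genes 13 were tested, 8 lower and 1 higher, with a median of -2.33. Prf1, perforin (ENSMUSG00000037202, chr10:61297833-61304680), read 48.9, 12.4 and 15.5 in Ctrl-IgG and 1.34, 1.36 and 2.79 in IL-10-Fc (log2 change -3.02 ± 0.53, adjusted p = 0.00147). Gzmb, the main granzyme of activated CD8+ T and NK cells (ENSMUSG00000015437, chr14:56258838-56262260), fell from 140.5, 137 and 47.2 to 20.8, 31.2 and 8.38 (log2 change -2.39 ± 0.59, adjusted p = 0.00989). Gzmf, one of a row of closely related granzyme genes, fell from 399, 449.6 and 142 to 45.2, 70.8 and 17.6 (log2 change -2.90 ± 0.61, adjusted p = 0.00412). The list holds other genes of this row, between which reads may have been split, so its members are not all separate loci. Within each group replicate 3 was the lowest for Gzmb and Gzmf. Gzma read 89.5, 63 and 14 against 16.1, 12.4 and 1.98 and was not called (log2 change -2.33 ± 0.91, adjusted p = 0.07). Srgn, the granule proteoglycan that myeloid cells also make, was the member called higher, at 78, 114 and 103 against 368, 564 and 147 (log2 change 1.68 ± 0.46, adjusted p = 0.017), lost without Ctrl-IgG replicate 1 or IL-10-Fc replicate 1 or 2 (adjusted p = 0.0607 to 0.0675). Without Ctrl-IgG replicate 1, or with the 6 libraries alone in the fit, 5 members were lower, and without IL-10-Fc replicate 3, 3 were higher. Neutrophil marker RNA was higher in the same libraries, and 4 of 15 macrophage markers were called higher. The part of cell numbers in these falls was not tested.

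Fewer than all NK markers fell, and no T cell marker was called lower. Of 12 NK markers, all tested, 5 were lower and none higher (0 higher also at an unadjusted p under 0.05 in limma), and their summed level was 275, 363 and 116 in Ctrl-IgG against 94.3, 76.8 and 22.6 in IL-10-Fc. The 5 were Klra4, Klra8, Eomes, Prf1 and Nkg7. Klra4, of the strain-variable Ly49 cluster, made up 58.5, 164 and 50.4 of the Ctrl-IgG sums and almost none of those of IL-10-Fc. Eomes, a T-box factor of NK and CD8+ T cells, fell from 6.2, 7.1 and 4.84 to 0.522, 0.498 and 0.459 (log2 change -2.23 ± 0.19, adjusted p = 1.95e-05). Klra8 was listed at 0 in all 3 IL-10-Fc libraries and read 2.77, 6.23 and 1.25 in Ctrl-IgG. NK receptor genes outside the Ly49 cluster were not called: Ncr1 read 4.41, 8.58 and 1.22 against 11.1, 5.73 and 0.955 (log2 change 0.16 ± 0.63, adjusted p = 0.866) and Klrd1 16.8, 37.1 and 7.43 against 23.2, 22.1 and 4.81 (log2 change -0.27 ± 0.60, adjusted p = 0.748). Of 18 T cell markers 16 were tested, 3 higher and none lower (1 lower at an unadjusted p under 0.05 in limma), with a median of 0.12. The share called higher was near that over all genes. Cd3d read 4.17, 6.63 and 4.13 against 11.6, 7.96 and 1.77 (log2 change 0.21 ± 0.46, adjusted p = 0.751) and Cd8a 1.93, 2.43 and 1.74 against 3.6, 4.05 and 2.68 (log2 change 0.55 ± 0.28, adjusted p = 0.16). Trac, the T cell receptor alpha constant gene, rose from 3.68, 4.36 and 2.89 to 9.93, 5.38 and 7.11 (log2 change 0.84 ± 0.26, adjusted p = 0.0302) and lost its call without Ctrl-IgG replicate 1 or 3 or IL-10-Fc replicate 1 (adjusted p = 0.0747 to 0.12). Thy1, which fibroblasts share, rose from 51.2, 34.2 and 40.7 to 103, 83.6 and 152 (log2 change 1.38 ± 0.24, adjusted p = 0.00137). T cell markers called higher numbered 1 with the 6 libraries alone in the fit and 0 with TPM. Their median with TPM was -0.45, against -0.57 for all genes. The count was 1 without Ctrl-IgG replicate 1 or 3 or IL-10-Fc replicate 1, and 5 without IL-10-Fc replicate 3. Of 19 checkpoint, exhaustion and regulatory T genes 17 were tested, and Ikzf2 was the only call, at 0.306, 0.432 and 0.315 against 1.52, 2.64 and 1.27 (log2 change 1.03 ± 0.20, adjusted p = 0.00262). Pdcd1, Lag3 and Ctla4, the genes of inhibitory receptors of T cells, were not called, with changes of 0.12, -0.09 and -0.10. No member was lower (1 at an unadjusted p under 0.05 in limma), but 1 was lower without IL-10-Fc replicate 1, and 2 were higher without Ctrl-IgG replicate 2 or IL-10-Fc replicate 3.

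The signature of 16 immune genes that the study scored mixes T cell, chemokine and interferon genes. It gave 3 calls higher, among them Ciita and Cxcr6, a share near that over all genes. Another 4 were lower (Cxcl10, Ccl5, Gzmb and Nkg7). The median was 0.17 (-0.44 with TPM and -0.23 without scaling), and 6 were higher without IL-10-Fc replicate 3. Relative to the median of all genes, the medians with TPM and without scaling were 0.13 and 0.15. Cxcr6, a chemokine receptor of T and NK cells, lost its call without Ctrl-IgG replicate 1, 2 or 3 or IL-10-Fc replicate 1 or 2 (adjusted p = 0.052 to 0.176), and Nkg7, a granule protein gene, without Ctrl-IgG replicate 1 or 2 or IL-10-Fc replicate 3 (adjusted p = 0.0661 to 0.119). A set of 7 genes that the study singled out for their rise under IL-10-Fc were all called higher, which is no independent evidence, because they were chosen on these samples. Wnt7a, a Wnt ligand of epithelium, and Apol11a, an apolipoprotein L gene, were listed at 0 in all 3 Ctrl-IgG libraries and read 2.7, 2.52 and 4.58 and 4.38, 5.42 and 2.46 in IL-10-Fc. Stfa2, a stefin gene of neutrophils with near-identical copies, read 0, 0 and 0.804 against 92, 59 and 18.8 (log2 change 5.30 ± 0.62, adjusted p = 0.000118). Elane, neutrophil elastase, read 0, 0.0554 and 0 against 4.58, 0.299 and 2.19 (log2 change 1.48 ± 0.49, adjusted p = 0.0388), with replicate 2 at the Ctrl-IgG level, and lost its call without Ctrl-IgG replicate 1, 2 or 3 or IL-10-Fc replicate 1 or 3 (adjusted p = 0.0636 to 0.154).

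**Figure D4:**
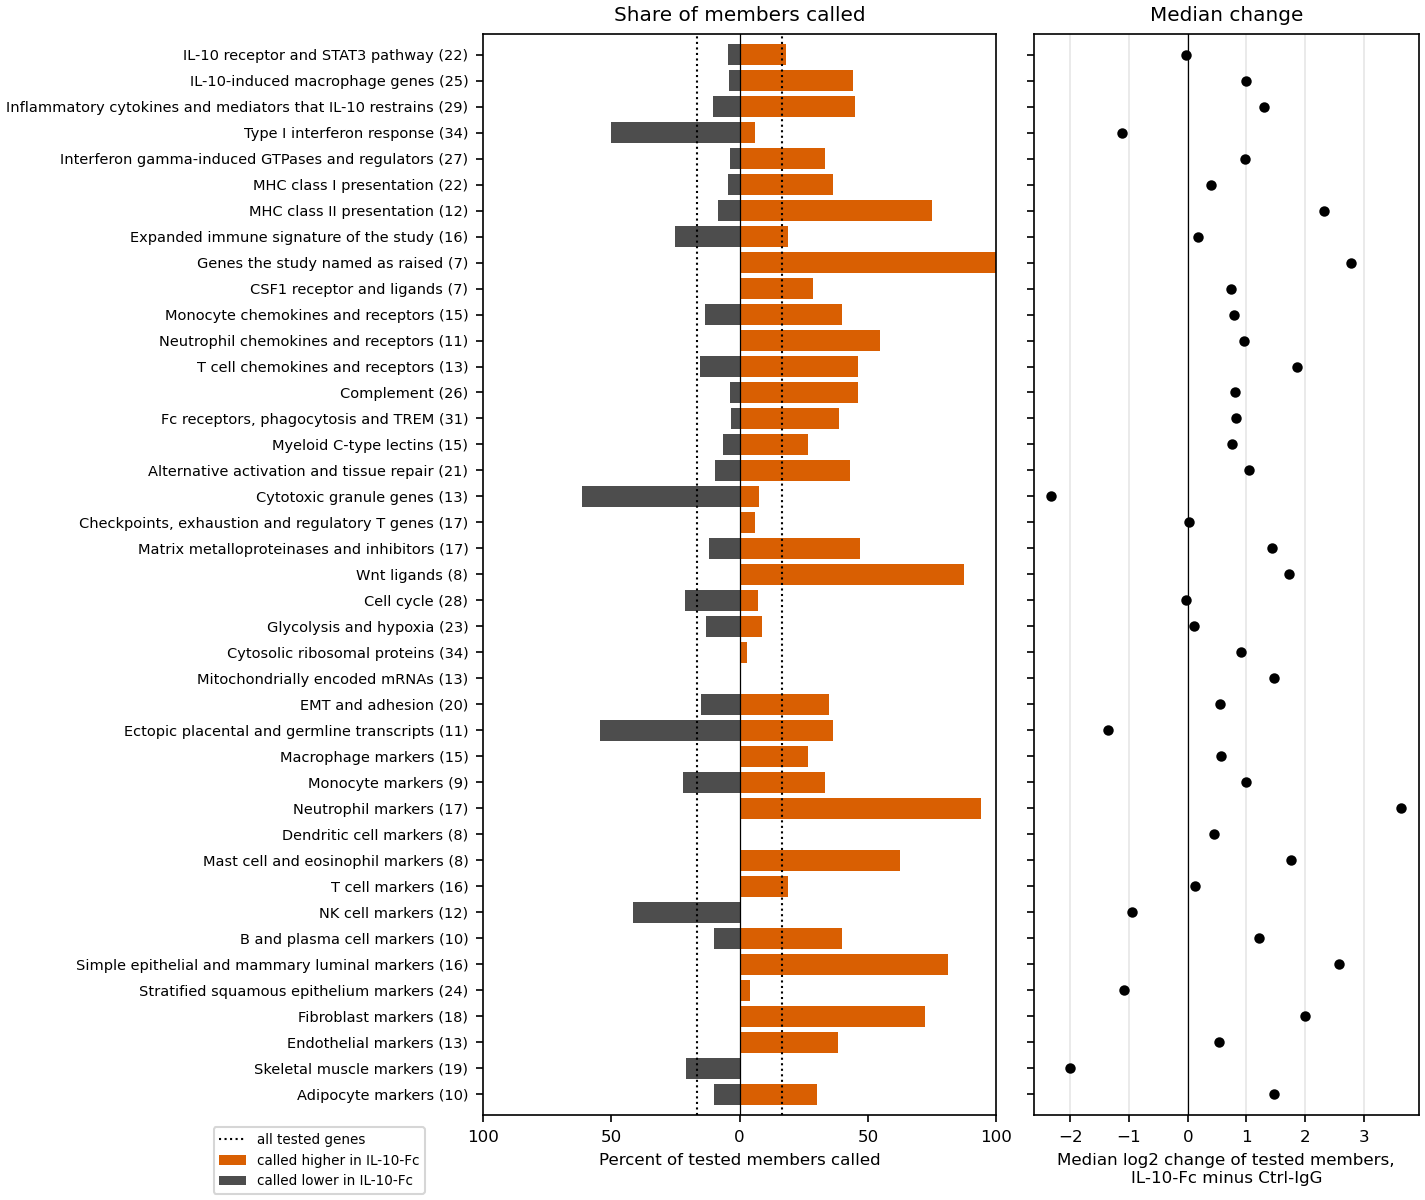
Share of tested members called higher (right, orange) or lower (left, grey) in IL-10-Fc for the gene lists with 7 or more tested members (number in brackets), with the shares over all tested genes dotted (16.4% and 16.8%), and the median log2 change of each list. The 7 genes singled out by the study, neutrophil markers, Wnt ligands, simple epithelial markers, class II genes and fibroblast markers lie farthest right of the dotted line, and cytotoxic granule genes, placental transcripts and type I interferon genes farthest left.

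Structural cells of the tumour differed as well. Of 24 simple epithelial and mammary luminal markers 16 were tested, 13 higher and none lower (0 lower also at an unadjusted p under 0.05 in limma), with summed levels of 23.4, 33.6 and 33.1 against 1100, 1137 and 1488. Epcam rose from 0.323, 0.233 and 2.7 to 52.5, 54.8 and 41.5 (log2 change 4.79 ± 0.39, adjusted p = 1.49e-05). In deposited FPKM, the list members Gata3 and Trps1 also rose, Gata3 from 2.91, 0.88 and 2.23 to 8.91, 9.69 and 28.8. Trps1 read 5.17, 7.16 and 4.7 against 19.05, 27.87 and 14.9. Of the milk genes, Wap and Csn2 were listed at 0 in all 6 libraries. Csn3 was present in both groups, at 7.89, 13.03 and 3.96 against 11.98, 7.57 and 1.64. The tested members that were not called numbered 3. Of 18 fibroblast markers, all tested, 13 were higher and none lower (0 lower also at an unadjusted p under 0.05 in limma), with a median of 1.99. Col3a1, a fibrillar collagen, rose from 65.2, 58.8 and 182 to 983, 677 and 837 (log2 change 3.20 ± 0.46, adjusted p = 0.000412), and Postn, a matrix protein of activated fibroblasts, from 7.02, 68.3 and 123 to 1233, 1707 and 383 (log2 change 4.51 ± 0.92, adjusted p = 0.00338). Col1a1 read 11.9, 10.9 and 75.9 against 229, 192 and 579 (log2 change 3.70 ± 0.67, adjusted p = 0.00164). Within Ctrl-IgG, replicate 3, the library with squamous and muscle RNA, was highest for Col1a1, Col3a1 and Postn. Cdh2, N-cadherin, fell from 4.53, 4.04 and 4.08 to 0.24, 0.332 and 0.795 (log2 change -1.86 ± 0.22, adjusted p = 0.000106), and Vim, a mesenchymal filament gene, rose from 1159, 1009 and 940.5 to 1698, 1791 and 3343 (log2 change 1.07 ± 0.33, adjusted p = 0.028), losing its call without Ctrl-IgG replicate 1, 2 or 3 (adjusted p = 0.0573 to 0.0904). Muscle markers gave 4 lower calls among 19, a share near the 16.8% over all tested genes. There were 2 lower and 1 higher without Ctrl-IgG replicate 3, and 7 lower without Ctrl-IgG replicate 2. Lower calls numbered 1 without IL-10-Fc replicate 1 or 2, 2 without IL-10-Fc replicate 3, and none with the 6 libraries alone in the fit (limma). In that fit 8 fibroblast markers were higher, and 6 with TPM. With the same replicate left out, 3 of 24 squamous markers were higher where 1 was with all 6 libraries.

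Wnt ligands and matrix metalloproteinases were also higher. Of 14 Wnt genes 8 were tested, 7 higher and none lower (0 lower also at an unadjusted p under 0.05 in limma), with a median of 1.72. Wnt7b, a Wnt ligand of epithelium, read 0.051, 0.0554 and 0.903 in Ctrl-IgG and 134, 102 and 82.9 in IL-10-Fc (log2 change 6.36 ± 0.37, adjusted p = 1.6e-06). Of 18 metalloproteinase and inhibitor genes 17 were tested, 8 higher and 2 lower. Mmp10, stromelysin 2, rose from 0.238, 0.321 and 0.671 to 96.5, 119 and 57.5 (log2 change 5.98 ± 0.48, adjusted p = 1.34e-05), and Mmp12, the elastase of macrophages, from 11, 27.3 and 14.1 to 401, 701 and 101 (log2 change 4.15 ± 0.65, adjusted p = 0.000685). Mmp3, stromelysin 1, read 1.43, 7.05 and 43.7 against 446, 718 and 256 (log2 change 5.51 ± 0.88, adjusted p = 0.000798). Mmp11, the stromelysin of tumour stroma, fell from 156, 54.3 and 96.1 to 13, 11.3 and 19.6 (log2 change -2.63 ± 0.41, adjusted p = 0.000723). Adamts1, the other member called lower, lost its call without Ctrl-IgG replicate 1 or 3 or IL-10-Fc replicate 1 or 2 (adjusted p = 0.0795 to 0.0984).

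Proliferation and metabolism showed no common direction. Of 28 cell cycle genes, all tested, 2 were higher and 6 lower with a median of -0.03. The share lower was near the 16.8% over all tested genes. Rrm2, a ribonucleotide reductase subunit, fell from 209.6, 221 and 182 to 27.5, 23.2 and 56.3 (log2 change -2.59 ± 0.32, adjusted p = 0.000168), and Ccnd1, cyclin D1, rose from 89.7, 44 and 79.8 to 152, 185 and 467 (log2 change 1.78 ± 0.42, adjusted p = 0.00742). Mki67, the Ki-67 proliferation marker, read 26.5, 83 and 22.9 against 116, 120.4 and 33.9 (log2 change 1.05 ± 0.57, adjusted p = 0.182). Lower calls numbered 2 with the 6 libraries alone in the fit, 3 without Ctrl-IgG replicate 1 or IL-10-Fc replicate 1 or 2 and 10 without IL-10-Fc replicate 3, and higher calls 6 without Ctrl-IgG replicate 2 or IL-10-Fc replicate 3. Of 23 glycolysis and hypoxia genes 2 were higher and 3 lower. The hypoxia gene Car9 rose from 9.17, 1.88 and 6.05 to 25.7, 36.5 and 66.8 (log2 change 2.79 ± 0.47, adjusted p = 0.00117), and Slc16a3, a lactate exporter gene, fell from 181, 75.8 and 162 to 18.9, 15.8 and 24.3 (log2 change -2.69 ± 0.36, adjusted p = 0.000286). Lower calls in that list numbered 1 without Ctrl-IgG replicate 1 or IL-10-Fc replicate 1 or with the 6 libraries alone in the fit, and 6 without IL-10-Fc replicate 3. Of 34 ribosomal protein genes 1 was called and of 13 mitochondrial mRNAs none (9 ribosomal genes and 1 mitochondrial mRNA were higher at an unadjusted p under 0.05 in limma), at medians of 0.91 and 1.48. The summed mitochondrial level was 16170, 58260 and 17190 in Ctrl-IgG and 111000, 114600 and 17270 in IL-10-Fc. With replicate 3 of IL-10-Fc left out, the member of its group with a low FPKM sum, 26 ribosomal genes and 12 mitochondrial mRNAs were called higher, and without Ctrl-IgG replicate 2, 2 and 3 were. Both lists follow the split by FPKM sum.

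**Figure D5:**
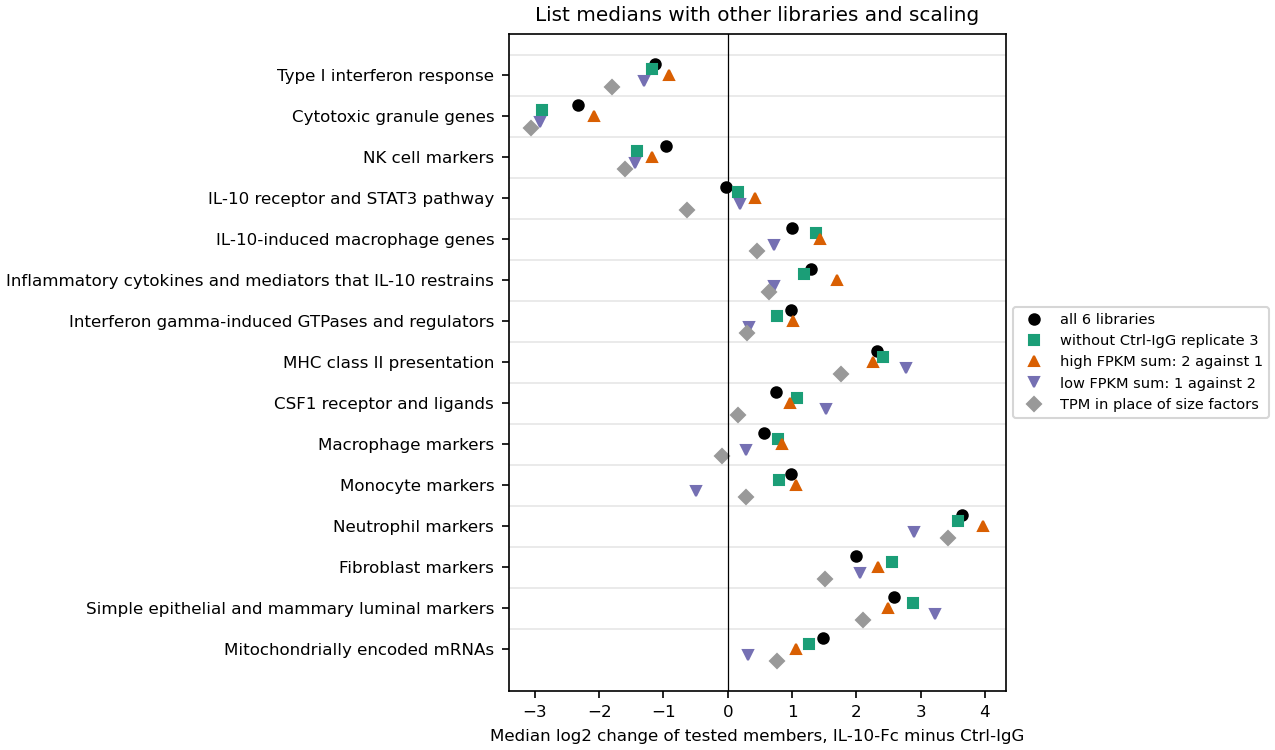
Median log2 change, IL-10-Fc minus Ctrl-IgG, of 15 gene lists in the comparison of all 6 libraries (black), without Ctrl-IgG replicate 3 (green), in the libraries of high FPKM sum alone (orange), in those of low FPKM sum alone (violet) and with TPM in place of size factors (grey). Type I interferon, cytotoxic and NK lists stay left of 0, and neutrophil, class II, fibroblast and simple epithelial lists stay right of 0 in all 5 settings, whereas monocyte markers, the IL-10 receptor list and macrophage markers cross it. The medians are not centred on all genes, whose median with TPM was -0.57.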

How the data were processed

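Libraries were made from Trizol-extracted tumour RNA with a stranded poly(A) kit and sequenced on an Illumina NextSeq 550, per the labels. The authors deposited FPKM per gene for 55401 genes. Their processing notes name STAR 2.7.5a, RSEM 1.3.3 and the builds mm10 and GRCm38, and RSEM can split reads between near-identical genes. The deposited FPKM have 2 decimals, so whole reads could not be recovered, depth is unknown and no count model was run. Deposited tables of DESeq2 1.30.0 (fold changes and p-values of the authors' group comparisons) were not used.

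FPKM were divided by median-of-ratios size factors (17397 genes above 0 in all 12 libraries). Genes with at least 1 scaled FPKM in at least 3 libraries were tested on log2(scaled FPKM + 1) with limma 3.58.1 in R 4.3.3, with an intensity trend and all 12 libraries in 1 model, so that 4 groups shared the estimate of spread. A call was a Benjamini-Hochberg adjusted p under 0.05 with a fold of at least 1.5. Per gene, an exact permutation test of 3 against 3 cannot go below a two-sided p of 0.1, so limma was the only test. Counts of lists are read against the share called over all tested genes. The script was tested on simulated data. Groups came from the treatment labels, and replicates were numbered in accession order. No libraries were identical. Positions are those of GENCODE M21 (GRCm38) for 99.5% of genes, and promoter sequences those of RefSeq (GRCm38.p6).

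The members and the 44 lists (814 entries, 813 of them in the table) were chosen with earlier results of these data known. Named genes are the 5 largest rises and falls among called genes without overlap and with a mean of at least 5 scaled FPKM, the 2 largest called rises and falls of each list, whole lists of the IL-10 receptor pathway, CSF1R and the study's own genes, and further list members chosen for their role. Alternatives changed scaling, pseudocount, filter, covariates and the libraries used. Comparisons within the libraries of high title code, of high and of low FPKM sum were chosen after seeing the data. The result of 1 list member is not reported here, though counts and medians of its lists include it.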

Additional observations from a re-analysis of the deposited data

How the results depend on the processing

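The main comparison called 5200 genes. The total called under another setting counts every gene called there, whether or not it was among the 5200. It was 3098 with a mean of at least 5 scaled FPKM required (fewer genes tested). With the 6 libraries alone in the fit (fewer samples) it was 2992, and with 1 library left out 3792 to 7523. It was 2364 in the replicate 3 libraries alone, whose title codes are high. That setting is 1 against 1, the lone samples being assumed to vary like the other groups. These totals do not show how many of the 5200 were called again. Without scaling 30.8% of calls were higher (median gene -0.383) and with TPM 27.6% (-0.568). The median of IL-10-induced macrophage genes (0.994) was 0.667 without scaling, 0.463 with TPM, 1.450 at low and 0.408 at high title code, 1.440 at high FPKM sum, and 0.866 to 1.378 with 1 library left out. That of inflammatory mediators (1.299) was 0.639 with TPM, 0.494 at high title code and 0.712 at low FPKM sum. That of type I interferon genes (-1.128) was -1.592 without scaling, -1.806 with TPM, -1.397 at low title code, -0.914 at high FPKM sum and -1.324 to -0.977 with 1 library left out. That of interferon gamma genes (0.985) was 0.499 without scaling, 0.293 with TPM, 0.451 with the FPKM sum as covariate, 0.424 at high title code, 0.337 at low FPKM sum and 0.676 to 1.467 with 1 library left out. That of class II genes (2.316) was 1.876 without scaling, 1.756 with TPM, 1.985 with quantile normalization, 1.993 with no filter, 2.710 with the FPKM sum as covariate and 2.774 at low FPKM sum. That of neutrophil markers (3.641) was 5.069 with a pseudocount of 0.1, 4.523 with the stricter filter, 1.952 at high title code and 2.896 at low FPKM sum. None of these list medians changed sign. Hbb-bs, a beta globin gene called higher, was -0.164 at high title code. The causes were not tested. Of 158 named genes called, 63 were called in every alternative that gave a value. No paired analysis was possible because the labels give no number that ties a Ctrl-IgG tumour to an IL-10-Fc tumour. Depth is unknown, so 3 libraries per group set the precision.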

Other observations

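Other cell types and gene groups gave the following values. Of 12 mast cell and eosinophil markers 8 were tested, 5 higher and none lower (0 lower also at an unadjusted p under 0.05 in limma). Tpsb2, a tryptase gene of mast cells, read 0.774, 0.776 and 4.87 in Ctrl-IgG and 38.8, 5.37 and 14.2 in IL-10-Fc (log2 change 2.57 ± 0.62, adjusted p = 0.00861), with no overlap. The neighbouring tryptase gene Tpsab1 rose from 0.068, 0.177 and 0.315 to 96.4, 12 and 24.6 (log2 change 4.75 ± 0.60, adjusted p = 0.000185). The count was 2 without Ctrl-IgG replicate 1 or IL-10-Fc replicate 1, and 1 with the 6 libraries alone in the fit. Of 16 B and plasma cell markers 10 were tested, 4 higher and 1 lower. Igkc, an antibody light chain gene, read 0.689, 4.41 and 9.85 against 182, 9.42 and 76.9 (log2 change 3.52 ± 1.18, adjusted p = 0.0407) and lost its call without Ctrl-IgG replicate 1 or 2 or IL-10-Fc replicate 1 or 3 (adjusted p = 0.0694 to 0.159). Pax5, a B cell factor, fell from 3.82, 2.87 and 3.31 to 0.0141, 0.0332 and 0.0562 (log2 change -2.06 ± 0.49, adjusted p = 0.00772). Without Ctrl-IgG replicate 1, 1 was higher, and without IL-10-Fc replicate 1 or 3, 2 were. None of 8 tested dendritic cell markers was called (1 higher and 0 lower at an unadjusted p under 0.05 in limma), and 3 were higher without IL-10-Fc replicate 3.

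Of 13 endothelial markers 5 were higher and none lower (0 lower also at an unadjusted p under 0.05 in limma). Eng, endoglin, rose from 5.85, 3.56 and 13.6 to 28.1, 17.1 and 45.4 (log2 change 1.92 ± 0.46, adjusted p = 0.00822). Leaving out Ctrl-IgG replicate 1, or fitting the 6 libraries alone, gave a count of 1. Leaving out Ctrl-IgG replicate 2 or IL-10-Fc replicate 1 gave 2, and IL-10-Fc replicate 2 gave 3. Of 10 adipocyte markers tested 3 were higher and 1 lower, and of 5 erythrocyte markers tested 2 were higher and none lower (0 lower also at an unadjusted p under 0.05 in limma). Hbb-bs read 78.2, 64.4 and 152 against 649.5, 577 and 135 (log2 change 2.01 ± 0.69, adjusted p = 0.045), with a wide scatter in IL-10-Fc, and lost its call without Ctrl-IgG replicate 1 or 2 or IL-10-Fc replicate 1 or 2 (adjusted p = 0.11 to 0.162). Adipocyte markers called higher numbered 0 without Ctrl-IgG replicate 1 or 2, 1 without Ctrl-IgG replicate 3 and 6 without IL-10-Fc replicate 3. Erythrocyte markers numbered 0 without Ctrl-IgG replicate 1 or 2 or IL-10-Fc replicate 1 or 2, 4 without Ctrl-IgG replicate 3 and 5 without IL-10-Fc replicate 3. With the 6 libraries alone in the fit no adipocyte or erythrocyte marker was called higher. Of 10 salivary markers 2 were tested, and Aqp5, a water channel of glands, rose from 0.383, 0.288 and 0.63 to 3.05, 1.5 and 2.86 (log2 change 1.25 ± 0.23, adjusted p = 0.00182).

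Among 20 tested genes of adhesion and mesenchymal transition 7 were higher and 3 lower, besides Cdh2 also Twist2, a mesenchymal transcription factor gene (log2 change -1.07 ± 0.21, adjusted p = 0.00304). Without Ctrl-IgG replicate 1, 4 were higher. Of 11 tested transcripts of placenta and germline 6 were lower and 4 higher. Plac1, a placental gene that some tumours express, read 0.255, 0.499 and 0.149 against 8.4, 8.92 and 4.61 (log2 change 2.64 ± 0.33, adjusted p = 0.00016), and Psg17, a pregnancy glycoprotein gene with close copies, 0.034, 0.0222 and 0.0414 against 2.94, 3.79 and 8.21 (log2 change 2.43 ± 0.30, adjusted p = 0.000147). The split of the 12 libraries by Krt18, Xist and H2-Ea did not follow the split by FPKM sum, since IL-10-Fc replicate 3 had the lowest sum of the 6 and the highest Krt18.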
